A study of Homo sapiens with 6 samples.

Results

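A set of 10 genes of the thioredoxin system and of the NRF2 oxidative stress response was followed in MDA-MB-453 cells cultured with 25-hydroxyvitamin D (25(OH)D). They are NFE2L2, KEAP1, TXN, TXNRD1, SRXN1, HMOX1, PRDX1, SOD1, SOD2 and CAT, each taken from the count table by its symbol, and all 10 of them were found among 33451 listed genes. MDA-MB-453 is a human breast cancer line that carries the androgen receptor and lacks oestrogen and progesterone receptors. The cells were grown for 5 days in 100 nM 25(OH)D (the experiment group, here 25(OH)D) or in its alcohol solvent alone (the control group), with 3 libraries in each group. The study calls the libraries biological replicates of 1 line, so p-values measure the spread between these cultures and not between cell lines. The question behind the comparison was how 25(OH)D, the circulating form of vitamin D, affects breast cancer cells.

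NRF2, the product of NFE2L2, is a transcription factor that KEAP1 binds in the cytoplasm and marks for degradation. Oxidants and electrophiles modify KEAP1, NRF2 escapes to the nucleus, pairs with a small MAF protein and binds antioxidant response elements, DNA sites near the genes of its programme. That control acts on the NRF2 protein, which mRNA counts do not measure. The thioredoxin system passes electrons from NADPH through thioredoxin reductase (TXNRD1) to thioredoxin (TXN), which reduces peroxiredoxins such as PRDX1 after they have destroyed peroxide. Sulfiredoxin (SRXN1) repairs peroxiredoxins that were oxidised too far, superoxide dismutases turn superoxide into hydrogen peroxide, catalase (CAT) breaks hydrogen peroxide down, and HMOX1 degrades heme.

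The libraries held between 33268860 and 40928176 counts, so that 3 counts corresponded to 0.072 to 0.0921 CPM, the count relative to a library size scaled by TMM factors. The 10 epithelial and luminal markers of the line were all present, none below a mean of 4.36 CPM, with a summed level of 4840 to 4920 CPM in control and 5590 to 5640 CPM in 25(OH)D. The receptors ESR1 and PGR together reached at most 0.312 CPM. Of 10 markers of blood, vessel and stromal cells, 7 never exceeded 0.435 CPM, PTPRC, PECAM1 and CD3E among them, and of the 3 tested 1 rose, the lysosomal gene CD68, and 1 fell, COL1A1. The sum of the 10 was 42.6 to 44.7 CPM in control and 46.9 to 55.0 CPM in 25(OH)D. Genes of the mitochondrial genome took 7.85% to 7.99% of the counts in control and 8.89% to 9.24% in 25(OH)D; the part of these shifts in the results was not tested. In bulk RNA, fewer cells that express a gene and less of its RNA per cell cannot be told apart.

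TXNRD1 was the only one of the 10 genes that rose in 25(OH)D, by 1.64 fold, and PRDX1 was the only one that fell, by 10.4%. The other 8 did not pass the test, an edgeR quasi-likelihood test with Benjamini-Hochberg adjustment over 18183 genes, in which an adjusted p under 0.05 counts as a change. All 10 passed the low-count filter. Among all genes tested, 17.3% rose and 16.5% fell, 33.8% in either direction, so 2 changes among 10 genes lay below the share over all genes. The median log2 fold change of the 10 genes was -0.02, beside -0.01 over all genes tested. In 3 of the 10, TXNRD1, PRDX1 and SOD1, the CPM of the groups did not overlap, which held for 45.7% of all genes. None passed a limit of an absolute log2 fold change over 1 with an unadjusted p under 0.05, by edgeR, which 6.65% of all genes passed, while 3 of the 10 had an unadjusted p under 0.05. TXNRD1, the gene nearest that limit, lay between 0.65 and 0.73 in all 14 alternative analyses, DESeq2 included.

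**Figure D1:**
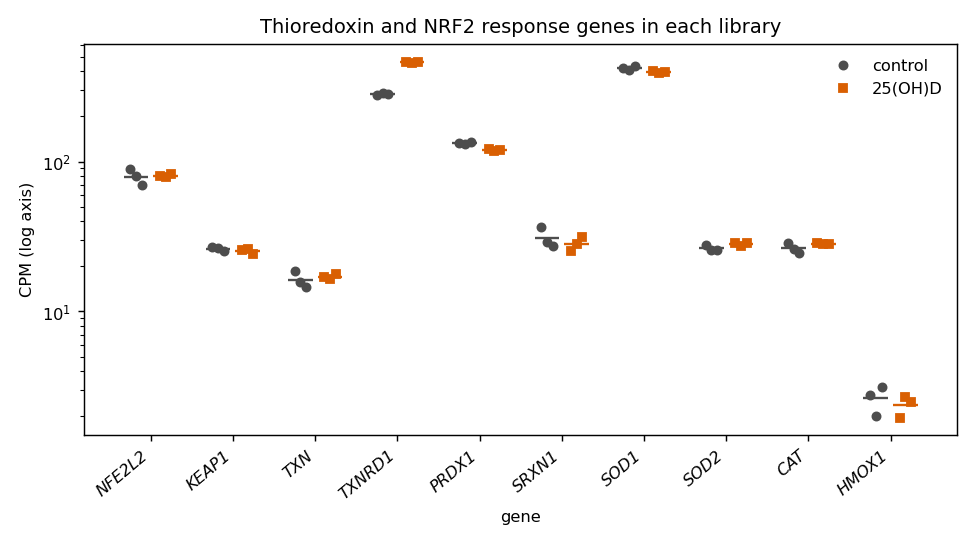
Level of the 10 genes in each library, in CPM on a log axis, with circles for control, squares for 25(OH)D and a bar at the mean of 3 libraries. TXNRD1 stands at 276 to 286 CPM in control and 455 to 463 CPM in 25(OH)D, and the groups lie close together or overlap for the other genes.

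**Figure D2:**
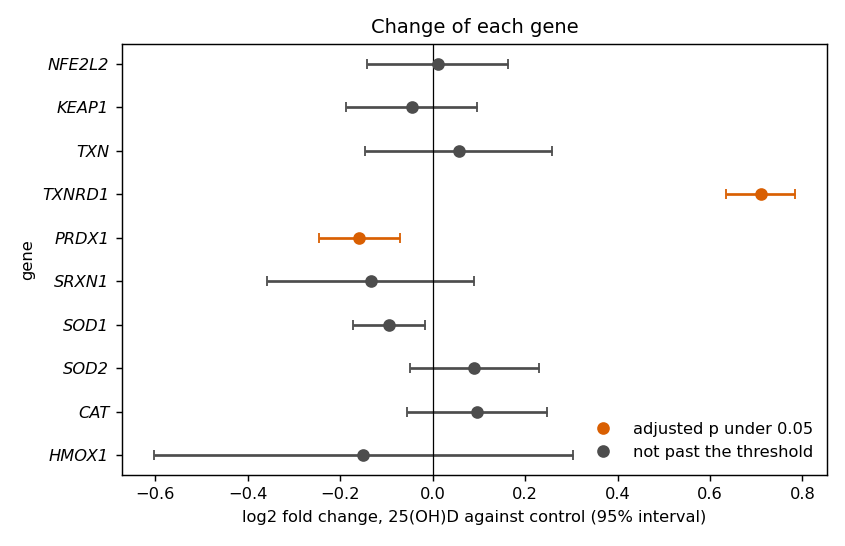
Log2 fold change of each gene in 25(OH)D against control with its 95% interval, in orange where the adjusted p was under 0.05. The interval of TXNRD1 runs from 0.64 to 0.78 and that of PRDX1 from -0.25 to -0.07, and HMOX1 has the widest interval of the 10.

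The sensor and the factor of the response were level between the groups. NFE2L2 lies on chromosome 2 (GRCh38, 177227595 to 177392697, minus strand) and was measured at 89.0, 79.8 and 69.7 CPM in control and at 80.1, 78.5 and 82.0 CPM in 25(OH)D. The control libraries spread over a wider range than the treated ones and enclosed them. Its log2 fold change was 0.01 (SE 0.071, 95% interval -0.14 to 0.16, adjusted p = 0.925 by edgeR), so a change of its mRNA beyond that interval was not seen at this depth. KEAP1 (chromosome 19, 10486120 to 10503741, minus strand) had 26.8, 26.4 and 25.5 CPM in control and 25.9, 26.3 and 24.0 CPM in 25(OH)D. These groups overlapped too, with a log2 fold change of -0.05 (SE 0.0659, interval -0.19 to 0.10, adjusted p = 0.644 by edgeR). For NFE2L2, 17.6% of the exon bases are shared on the same strand with AC074286.1, a gene with a mean of 24.0 counts in control. On the opposite strand 3.18% are shared with AC079305.10, which had means of 820 counts in control and 788 in 25(OH)D. Another 0.903% are shared there with AGPS, which had means of 2600 and 3490 counts and a log2 fold change of 0.56. The reads in these shared bases cannot be told apart.

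Some partners of NRF2 changed. The list of 15 regulators, which leaves out NFE2L2 and KEAP1, held 14 tested genes, of which 6 rose (42.9%), 2 fell (14.3%) and 6 did not pass, beside 17.3% and 16.5% of all genes. The median log2 fold change of the list was 0.19. MAFG, a small MAF protein that pairs with NRF2, rose from 12.0 ± 1.22 to 15.8 ± 0.33 CPM (SD, n = 3; log2 fold change 0.40, adjusted p = 0.00305 by edgeR). MAFK, another small MAF protein, rose from 20.2 ± 0.223 to 28.8 ± 0.554 CPM (0.51, adjusted p = 2.13e-05 by edgeR). BACH1, a repressor that competes for the same sites and represses HMOX1, fell from 7.17 ± 0.469 to 4.99 ± 0.731 CPM (-0.52, adjusted p = 0.00709 by edgeR). For each of these 3 genes every treated library lay on the same side of every control library. NFE2L1, a relative of NFE2L2 that was chosen after its values were seen, rose from 476 ± 6.16 to 541 ± 14.2 CPM (log2 fold change 0.19, adjusted p = 8.19e-04 by edgeR). Its other relative NFE2L3, likewise chosen, had 2.02 ± 0.392 CPM in control and 2.74 ± 0.675 CPM in 25(OH)D and did not pass (adjusted p = 0.154 by edgeR). SQSTM1, the autophagy receptor that takes KEAP1 away from NRF2, had 174 ± 3.19 and 164 ± 5.35 CPM (log2 fold change -0.09, adjusted p = 0.124 by edgeR) and was called lower in 4 of 14 alternatives. MAFK shares 18.1% of its exon bases with TMEM184A on the opposite strand. TMEM184A had a mean of 1310 counts in control and 1990 in 25(OH)D, a log2 fold change of 0.73. Without knowing whether counting used strand, the reads of this pair cannot be told apart. MAFG shares 4.29% of its exon bases with RP11-498C9.12 on the opposite strand. That gene had means of 108 counts in control and 159 in 25(OH)D, a log2 fold change of 0.70. Another 2.01% are shared on the same strand with SIRT7, which had means of 1200 and 1050 counts. The reads in these shared bases cannot be told apart either.

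In the thioredoxin system the clearest difference was that of the reductase. TXNRD1, the selenoprotein that recharges thioredoxin in the cytosol, lies on chromosome 12 (104215779 to 104350305, plus strand). The deposited counts were 11484, 10809 and 10390 in control and 16231, 17511 and 15093 in 25(OH)D, which is 276, 286 and 282 CPM against 462, 455 and 463 CPM. Every treated library stood well above every control library, and the libraries of a group differed little: the spread within groups (an SD of 0.0205 on the log2 scale) was at percentile 1.02 of all genes tested. The log2 fold change was 0.71 (SE 0.0347, interval 0.64 to 0.78, adjusted p = 1.1e-09 by edgeR), a 1.64-fold rise (interval 1.55 to 1.72). TXNRD1 shares no exon bases with another gene, and none of its 100-base words occur in the transcripts of another gene. Of all counts that fell on the 10 genes, TXNRD1 took 26.1% to 27.7% in control and 38.7% to 38.9% in 25(OH)D.

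Because TXNRD1 was the gene that rose and is a known NRF2 target, its promoter windows are shown, with a window of KEAP1 and that of GCLM, another known target, which hold the same motif. Each window covers 250 bases before to 50 bases after an annotated start (RefSeq, GRCh38.p14), 300 bases in all, written 5′ to 3′ on the strand of the gene. Capitals mark the core of the antioxidant response element, TGACNNNGC, searched on both strands. Windows 1 and 2 of TXNRD1 are chr12:104215529-104215828 and chr12:104286782-104287081, window 2 of KEAP1 is chr19:10502722-10503021, and the window of GCLM is chr1:93909381-93909680.
TXNRD1 window 1: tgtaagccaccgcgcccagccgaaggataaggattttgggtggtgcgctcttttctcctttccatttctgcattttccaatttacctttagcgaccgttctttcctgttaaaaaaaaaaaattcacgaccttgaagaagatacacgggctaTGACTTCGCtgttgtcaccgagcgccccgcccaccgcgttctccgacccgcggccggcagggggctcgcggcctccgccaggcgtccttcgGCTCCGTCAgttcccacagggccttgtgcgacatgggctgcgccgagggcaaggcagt
TXNRD1 window 2: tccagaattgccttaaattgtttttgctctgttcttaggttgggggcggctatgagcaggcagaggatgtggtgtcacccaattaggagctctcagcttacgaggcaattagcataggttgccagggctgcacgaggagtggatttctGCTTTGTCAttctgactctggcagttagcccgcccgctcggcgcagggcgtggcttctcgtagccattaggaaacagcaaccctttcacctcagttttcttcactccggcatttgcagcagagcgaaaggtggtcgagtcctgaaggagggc
KEAP1 window 2: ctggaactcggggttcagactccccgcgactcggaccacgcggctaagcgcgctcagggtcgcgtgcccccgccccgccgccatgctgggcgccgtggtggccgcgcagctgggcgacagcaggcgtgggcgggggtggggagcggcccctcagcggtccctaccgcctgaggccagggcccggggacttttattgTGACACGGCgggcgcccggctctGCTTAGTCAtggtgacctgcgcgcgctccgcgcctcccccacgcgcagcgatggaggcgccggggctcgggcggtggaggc
GCLM window 1: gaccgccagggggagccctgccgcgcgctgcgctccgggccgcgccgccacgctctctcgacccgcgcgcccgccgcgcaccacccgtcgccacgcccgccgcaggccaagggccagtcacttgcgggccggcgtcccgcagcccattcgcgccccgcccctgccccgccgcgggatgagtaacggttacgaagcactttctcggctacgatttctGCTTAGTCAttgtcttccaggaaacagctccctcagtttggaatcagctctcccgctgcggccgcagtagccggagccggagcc

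The first TXNRD1 window holds TGACTTCGC from position -99 and, on the opposite strand, TGACGGAGC, whose capitals begin at position -8, counted from the start site. The second holds the core once, on the opposite strand, beginning at position -102. KEAP1 window 2 holds it on each strand, from positions -54 and -31, and GCLM on the opposite strand from position -34. The table had windows for 7 of the 10 genes, 13 windows in all, and 3 windows of 2 genes, TXNRD1 and KEAP1, held the core. Among all 35116 windows 13.3% held it, and by gene 16.1% of the 27305 genes with a window held it. The AP-1 site TGANTCA lay in 7.71% of all windows and in none of the 13. No AP-1 match overlapped a core in the windows of the named genes. HMOX1, PRDX1 and SOD1 had no window in the table. The windows of SRXN1, NQO1 and GCLC, also known NRF2 targets, held no core. Of the other 33 pathway genes named here, 27 had a window, and 5 of these held the core: GCLM and SECISBP2, which are described below as higher, XDH and FECH, described as lower, and CCS, which did not pass. KEAP1, with the core, did not pass the test either, and a match is a description of the window only.

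Thioredoxin itself, the substrate of TXNRD1, was measured in far fewer reads. TXN (chromosome 9, 110243811 to 110256640, minus strand) had 779, 593 and 539 counts in control and 593, 630 and 580 in 25(OH)D, or 18.7, 15.7 and 14.6 CPM against 16.9, 16.4 and 17.8 CPM. The treated libraries lay inside the range of the control libraries. The log2 fold change was 0.06 (SE 0.0938, interval -0.15 to 0.26, adjusted p = 0.692 by edgeR). Its 2 named pseudogenes in the table had at most 4 counts in a library.

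PRDX1, the abundant cytosolic peroxiredoxin that thioredoxin reduces, fell. It lies on chromosome 1 (45511036 to 45523047, minus strand) and had 132, 131 and 136 CPM in control and 121, 117 and 119 CPM in 25(OH)D. The lowest control library was above the highest treated one. The log2 fold change was -0.16 (SE 0.0406, interval -0.25 to -0.07, adjusted p = 0.00752 by edgeR), a decrease of 10.4% with an interval of 4.80% to 15.7%. Without 25(OH)D replicate 2 it was -0.14 and no longer passed (adjusted p = 0.0556 by edgeR). PRDX1 shares 24.9% of its exon bases with MMACHC on the opposite strand, which had a mean of 943 counts in control and 828 in 25(OH)D, and the reads in the shared bases cannot be told apart.

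Of the other 5 peroxiredoxins, 4 rose, beside 17.3% of all genes, though the call of PRDX3 was lost in most alternatives. PRDX5, which is found in several compartments, rose from 175 ± 15 to 224 ± 13.7 CPM (SD, n = 3; log2 fold change 0.35, adjusted p = 3.13e-04 by edgeR). The remaining family members were chosen after their values were seen. PRDX2 rose from 57.2 ± 1.83 to 71.6 ± 3.15 CPM (log2 fold change 0.32) and PRDX6 from 40.2 ± 1.14 to 47.4 ± 2.92 CPM (0.24). PRDX2 shares 14.1% of its exon bases with CTD-2659N19.10 on the opposite strand, which had a log2 fold change of 0.39. PRDX3, the mitochondrial form, had 14.3 ± 0.151 and 16.6 ± 0.521 CPM (0.21, adjusted p = 0.0433 by edgeR), a call that was lost in 13 of 14 alternatives. PRDX4, the form of the endoplasmic reticulum, had 27.2 ± 2.88 and 31 ± 1.39 CPM and did not pass (0.19, adjusted p = 0.0795 by edgeR), although 2 of 14 alternatives called it higher. With the sestrins, stress-induced proteins that regulate growth signalling, the list held 8 tested genes, of which 4 rose and 1 fell, with a median log2 fold change of 0.20. The gene that fell was SESN2, from 22.5 ± 1.3 to 12.6 ± 1.72 CPM (-0.84, adjusted p = 1.03e-05 by edgeR).

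SRXN1, the enzyme that restores overoxidised peroxiredoxins, varied more between libraries than between groups. It had 36.7, 28.9 and 27.2 CPM in control and 25.3, 28.2 and 31.2 CPM in 25(OH)D. The groups overlapped, and control replicate 1 stood above the rest. The log2 fold change was -0.13 (SE 0.104, interval -0.36 to 0.09, adjusted p = 0.358 by edgeR) and 0.01 without control replicate 1. SRXN1 (chromosome 20, 646615 to 653370, minus strand) shares 85.0% of its exon bases on the same strand with another listed gene, which had a mean of 1132 counts in control and 939 in 25(OH)D beside 1208 and 997 for SRXN1, so the reads of this pair cannot be told apart.

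Inhibitors and relatives of thioredoxin were called in both directions, at shares near those of all genes. The list of the thioredoxin and glutaredoxin system, which leaves out the 10 genes above, held 20 genes, of which 19 were tested. Of these, 4 rose (21.1%), 4 fell (21.1%) and 11 did not pass, beside 17.3% and 16.5% of all genes. The median log2 fold change of the list was 0.10. TXNIP, which binds thioredoxin and blocks it, had 57.4, 57.8 and 59.7 CPM in control and 39.1, 41.4 and 37.9 CPM in 25(OH)D. The groups were well apart, with a log2 fold change of -0.56 (SE 0.0551, adjusted p = 1.88e-06 by edgeR). Glutaredoxin GLRX, which reduces proteins with glutathione, fell from 4.91 ± 0.456 to 2.65 ± 0.415 CPM (-0.88, adjusted p = 6.52e-04 by edgeR). TXNDC17, a thioredoxin-like protein that TXNRD1 also reduces, rose from 7.27 ± 0.743 to 10.9 ± 0.501 CPM (0.59, adjusted p = 5.37e-04 by edgeR). In mitochondria TXN2 and TXNRD2 do the work of TXN and TXNRD1. TXN2 had 19.7 ± 0.626 and 20 ± 0.448 CPM (0.02, adjusted p = 0.826 by edgeR). TXNRD2 had 23.3 ± 1.66 and 20.1 ± 0.542 CPM (-0.21, adjusted p = 0.0369 by edgeR), a call lost in 10 of 14 alternatives. TXNDC17 shares 32.4% of its exon bases with MED31 on the opposite strand, which had a log2 fold change of 0.59, and the reads of this pair cannot be told apart.

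Both superoxide dismutases and catalase stayed within the threshold. SOD1, the copper and zinc enzyme of the cytosol, lies on chromosome 21 (31659622 to 31668931, plus strand) and had 420, 410 and 434 CPM in control and 402, 389 and 393 CPM in 25(OH)D. All treated libraries were below all control libraries by a small margin. The log2 fold change was -0.09 (SE 0.0361, interval -0.17 to -0.02, adjusted p = 0.06 by edgeR), and 4 of 14 alternatives called it lower. Library sizes alone was 1 of these (-0.14, adjusted p = 0.00621 by edgeR), a scaling that moved the median of all genes by -0.0441. SOD2, the manganese enzyme of mitochondria, lies on chromosome 6 (159669057 to 159762529, minus strand) and had 27.9, 25.8 and 25.9 CPM against 28.7, 27.4 and 28.7 CPM. Control replicate 1 lay inside the treated range. Its log2 fold change was 0.09 (SE 0.0645, interval -0.05 to 0.23, adjusted p = 0.316 by edgeR). SOD2 shares 9.74% of its exon bases with ACAT2 and 2.3% with WTAP, both on the opposite strand. ACAT2 had means of 1580 counts in control and 1520 in 25(OH)D, and WTAP had 1770 and 1480. The reads in these shared bases cannot be told apart. CAT, the peroxisomal enzyme on chromosome 11 (34438925 to 34472062, plus strand), had 28.8, 26.1 and 24.7 CPM against 28.8, 28.3 and 28.0 CPM. Here too control replicate 1 reached the treated level, and the log2 fold change was 0.10 (SE 0.0702, interval -0.06 to 0.25, adjusted p = 0.329 by edgeR).

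In the wider list for superoxide and hydrogen peroxide, 14 of 20 genes were tested. Of these, 3 rose (21.4%), 1 fell (7.14%) and 10 did not pass, beside 17.3% and 16.5% of all genes. The median log2 fold change of the list was 0.03. CCS, the copper chaperone that loads SOD1, had 23.8 ± 1.44 and 21.2 ± 1.98 CPM (SD, n = 3) and did not pass (log2 fold change -0.17, adjusted p = 0.135 by edgeR). OXSR1, a kinase of the osmotic and oxidative stress response, rose from 40.8 ± 0.477 to 64.4 ± 2.9 CPM (0.66, adjusted p = 3.12e-07 by edgeR). XDH, the xanthine dehydrogenase that can produce superoxide, had 4.2, 3.91 and 4.45 CPM in control and 0.284, 0.364 and 0.552 CPM in 25(OH)D. That is the largest fall among the tested genes of the pathway lists, with a log2 fold change of -3.39 (SE 0.244, adjusted p = 7.9e-08 by edgeR).

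HMOX1, the inducible heme oxygenase on chromosome 22 (35380361 to 35394214, plus strand), was the least abundant of the 10. It had 116, 76 and 116 counts in control and 69, 104 and 81 in 25(OH)D, or 2.79, 2.01 and 3.15 CPM against 1.96, 2.70 and 2.49 CPM. The groups overlapped widely. The log2 fold change was -0.15 (SE 0.211), and its interval of -0.60 to 0.30 is the widest of the 10 (adjusted p = 0.633 by edgeR). A change inside that interval is therefore not excluded at this depth. HMOX1 did not pass while BACH1, its repressor, fell.

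Of the 7 other genes of the heme pathway, all tested, 4 rose and 1 fell, beside 17.3% and 16.5% of all genes, with a median log2 fold change of 0.16. BLVRB, a biliverdin reductase that acts downstream of heme oxygenase, had 64.5, 65.9 and 65.4 CPM in control and 96.5, 102 and 100 CPM in 25(OH)D (log2 fold change 0.61, adjusted p = 1.16e-07 by edgeR). HMOX2, the constitutive heme oxygenase, had 79.1 ± 5.35 and 88.1 ± 2.96 CPM (0.16, adjusted p = 0.0422 by edgeR), and 8 of 14 alternatives lost the call. FECH, which completes heme by inserting the iron, had 37.6 ± 4.03 and 31.6 ± 1.89 CPM (-0.25, adjusted p = 0.0241 by edgeR), a call lost in 6 of 14.

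Levels of different genes were compared per length, as the deposited RPKM, the count divided by exon length and by the library total. In control SOD1 led with 212 ± 5.03 RPKM, followed by PRDX1 with 88.5 ± 1.29 and TXNRD1 with 42.5 ± 0.757 RPKM. Below them came TXN with 14.5 ± 1.93, NFE2L2 with 13.5 ± 1.69 and SRXN1 with 11.6 ± 1.93 RPKM. The libraries of TXN overlapped those of NFE2L2, and those of NFE2L2 overlapped those of SRXN1, so the order of these neighbours is within their spread. CAT had 8.04 ± 0.67, KEAP1 7.07 ± 0.2, SOD2 1.42 ± 0.066 and HMOX1 1.12 ± 0.242 RPKM, with no overlap between neighbours. In 25(OH)D the order of the 10 was the same. TXNRD1 there stood at 67.5 ± 0.15 RPKM, near PRDX1 at 76.9 ± 0.831 RPKM. The length used for SOD2, 18985 bases, is the union of all annotated exons, which lowers its RPKM where transcripts use only some of them.

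Ratios within a library compared genes that act on each other. The ratio of NFE2L2 to KEAP1 was 2.09, 1.90 and 1.72 in control and 1.95, 1.88 and 2.15 in 25(OH)D. These values overlapped, and the difference of 0.07 on the log2 scale had p = 0.5 in a two-sided exact permutation test. The ratio of TXNRD1 to TXN had a geometric mean of 2.95 in control and 4.61 in 25(OH)D, 1.56 times higher. TXNIP to TXN went from 1.13 to 0.73, and SOD2 to SOD1 from 0.00669 to 0.00761. In each of these last 3 ratios the groups did not overlap, and each had p = 0.1 in the exact permutation test, the smallest that 3 libraries against 3 allow, and 0.133 after Benjamini-Hochberg adjustment over the 4 ratios.

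**Figure D3:**
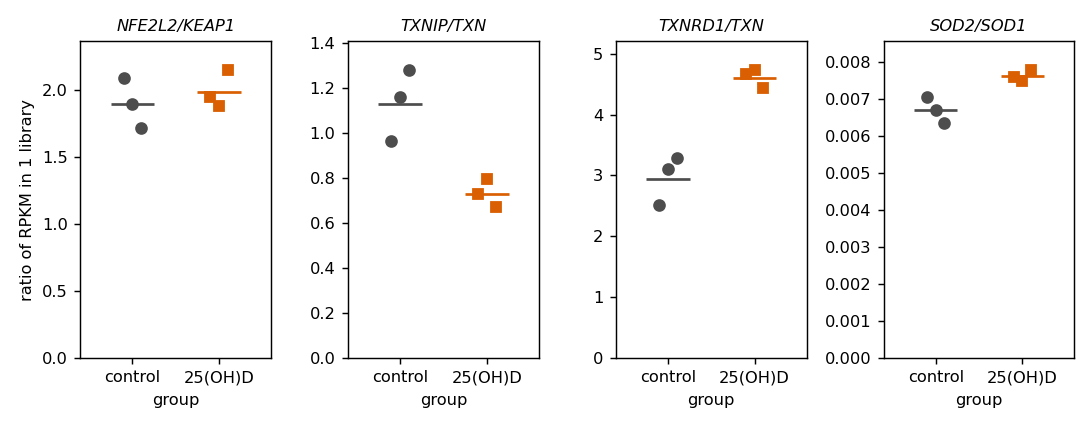
Ratio of the RPKM of a pair of genes in each library, from 0 upward, with circles for control, squares for 25(OH)D and a bar at the geometric mean. TXNRD1 to TXN runs from 2.51 to 3.28 in control and from 4.43 to 4.73 in 25(OH)D, while NFE2L2 to KEAP1 overlaps between the groups.

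Known targets of NRF2 outside the 10 genes rose more often than they fell. Of 32 genes in that list, 27 were tested, 16 rose, 3 fell and 8 did not pass, and the median log2 fold change was 0.25, beside -0.01 over all genes. The shares were 59.3% higher and 11.1% lower, against 17.3% and 16.5% of all genes. The list was drawn up with earlier results of these data known, so its count is not independent evidence of a direction. Of its genes, 6 passed an absolute log2 fold change of 1 with an unadjusted p under 0.05. The largest rises of the list are not among the genes described below.

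NQO1, a quinone reductase often used to read NRF2 activity, had 413, 411 and 410 CPM in control and 589, 576 and 566 CPM in 25(OH)D. The control values were almost equal and all below the treated ones (log2 fold change 0.49, SE 0.0337, adjusted p = 5.08e-08 by edgeR). NQO1 shares 17.7% of its exon bases with CTD-2033A16.1 on the opposite strand, which had a log2 fold change of 0.74.

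The genes of glutathione synthesis gave a rise, a fall and a value that did not pass. GCLM, the modifier subunit of glutamate-cysteine ligase, whose promoter window is shown above, had 9.39, 11.5 and 7.82 CPM in control and 16.2, 15.6 and 16.7 CPM in 25(OH)D. It rose in every treated library (log2 fold change 0.75, SE 0.118, adjusted p = 1.77e-04 by edgeR). GCLC, the catalytic subunit, had 40.6, 27.2 and 25.0 CPM against 24.0, 33.3 and 37.0 CPM. Its libraries overlapped across the whole range (0.02, SE 0.166, adjusted p = 0.94 by edgeR). SLC7A11, the cystine importer that supplies cysteine for glutathione, had 74.5, 72.8 and 74.9 CPM in control and 18, 16.5 and 17.6 CPM in 25(OH)D. It fell in all 3 treated libraries (log2 fold change -2.09, SE 0.058, adjusted p = 2.13e-12 by edgeR) although it stands on the same target list as NQO1. SLC7A11 shares 8.97% of its exon bases with SLC7A11-AS1 on the opposite strand, which had a log2 fold change of -1.96. The other genes of the list that fell, chosen after their values were seen, were the aldehyde dehydrogenase ALDH3A1, from 2.09 ± 0.32 to 0.52 ± 0.241 CPM, and the heme transporter SLC48A1, from 28.3 ± 1.1 to 22.9 ± 1.48 CPM.

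Ferritin subunits store iron and are also on the list. FTH1, the heavy chain, rose from 861 ± 16.7 to 1020 ± 25.2 CPM (SD, n = 3; log2 fold change 0.25, adjusted p = 5.25e-05 by edgeR). It shares 62.4% of its exon bases with BEST1 on the opposite strand, which had a mean of 22386 counts in control and 24611 in 25(OH)D, so its value may hold reads of both genes. FTL, the light chain, had 11.9 ± 0.95 and 12.3 ± 0.0833 CPM and did not pass (0.05, adjusted p = 0.72 by edgeR).

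**Figure D4:**
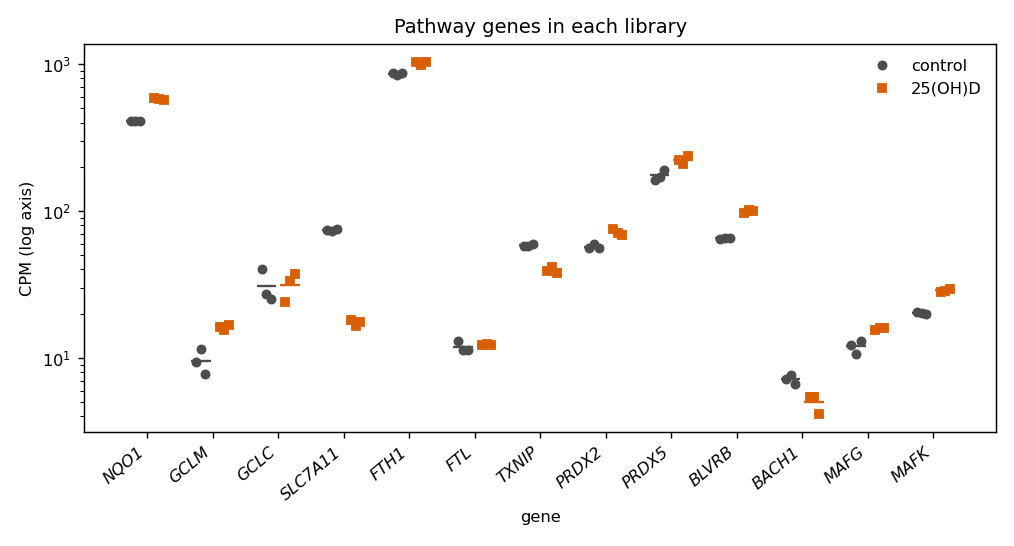
Level of 13 genes of the pathway lists in each library, in CPM on a log axis, with circles for control, squares for 25(OH)D and a bar at the mean. NQO1 lies at 410 to 413 CPM in control and at 566 to 589 CPM in 25(OH)D, SLC7A11 drops from 72.8 to 74.9 CPM to 16.5 to 18 CPM, and GCLC and FTL overlap.

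TXNRD1 is a selenoprotein, and the genes that insert selenocysteine were examined for that reason. All 7 were tested, 2 rose (28.6%), 1 fell (14.3%) and 4 did not pass, beside 17.3% and 16.5% of all genes. The median log2 fold change of the list was -0.05. SEPHS1, a selenophosphate synthetase homologue, fell from 45.2 ± 1.14 to 38.1 ± 1.93 CPM (-0.25, adjusted p = 0.0044 by edgeR). SECISBP2, which binds the selenocysteine insertion element of the mRNA, had 30.5 ± 3.05 and 35.3 ± 0.48 CPM (0.21, adjusted p = 0.0387 by edgeR), and 9 of 14 alternatives lost the call. With 7 genes, the counts of calls lie near the shares over all genes, so no direction of this machinery is read from them.

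Over all 7 lists 96 of 109 genes were tested, 39 rose, 13 fell and 44 did not pass. That is 40.6% higher and 13.5% lower, beside 17.3% and 16.5% of all genes, in lists drawn up with earlier results known. The median log2 fold change was 0.12, and the groups did not overlap in 61 of the 96, beside 45.7% of all genes. Leaving out each library in turn gave 33 to 38 genes higher and 10 to 13 lower.

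**Figure D5:**
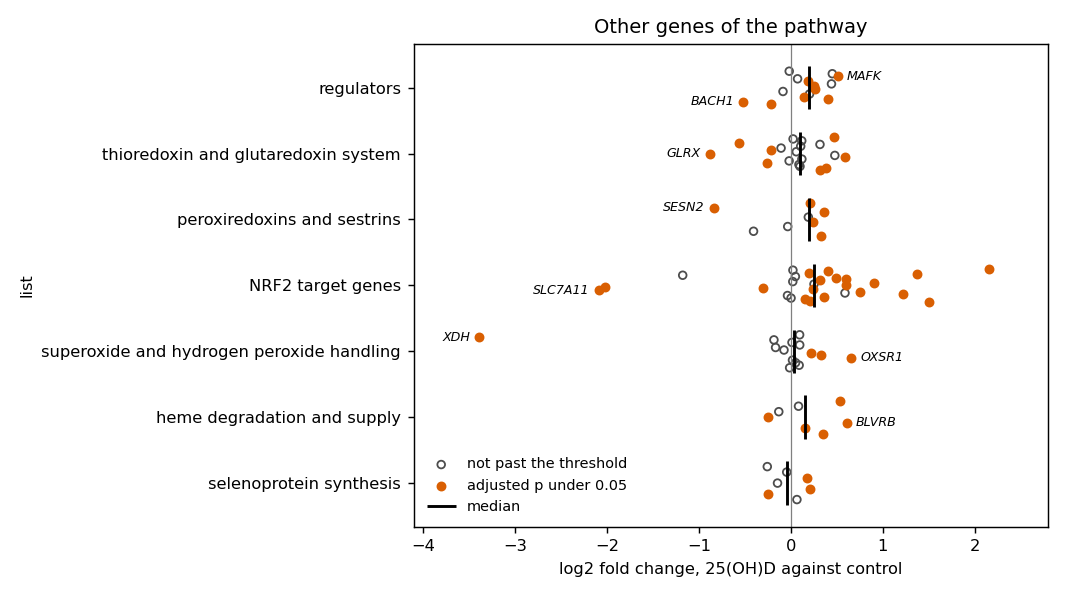
Log2 fold change of the tested genes of 7 pathway lists, 1 point per gene, filled in orange where the adjusted p was under 0.05, with a black bar at the median of the list. The list of NRF2 target genes has a median of 0.25 with SLC7A11 at -2.09 as its lowest point, and XDH at -3.39 is the lowest point of all lists.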

How the data were processed

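Libraries were polyadenylated mRNA made with a stranded kit and sequenced as read pairs. The authors deposited a table of raw counts per gene and a table of RPKM, which equals the count divided by exon length and library total. The submitters' processing notes name GRCh38, Trimmomatic 0.36 (a read trimmer), featureCounts (a read counter), Subread 1.5.1 and edgeR 3.12.1. The aligner, the annotation release and the strand setting are not given in the sources used here. Groups came from the sample titles. All 6 columns of each table were used.

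Counts were tested in R 4.3.3 with edgeR 4.0.16 (TMM factors, filterByExpr with a minimum count of 10, quasi-likelihood test without covariates, Benjamini-Hochberg adjustment over 18183 genes). The biological coefficient of variation was 0.0788. The test was tried on simulated counts. The SE is the log2 fold change divided by the square root of F. Alternatives were other scalings, no filter, DESeq2 1.42.0, limma 3.58.1 on log2(RPKM + 1) and log2(RPKM + 0.1), the replicate block, leaving out each library, and a fold limit. Tables, motif searches and figures used Python 3.11.15. Depth was 33268860 to 40928176 counts per library, and low genes are limited by counting error. The 10 genes, the 7 lists and the tests were chosen with earlier results of these data known. Named were the 10 genes, 15 set pathway genes (14 of them reported here), and in each list the largest rise and fall past the threshold, provided the higher group averaged 100 counts or more. The largest rise of the NRF2 target list is not reported here. Relatives named outside the rule are marked. From the lists ME1, SELENOP, NOX4 and NOX5 were not analysed here.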

Additional observations from a re-analysis of the deposited data

How the results depend on the processing

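TXNRD1 was called higher in all 14 alternatives at an adjusted p under 0.05, and no gene of the 10 passed the fold limit, which gave 0 higher and 0 lower. Lower calls among the 10 numbered 2, by adding SOD1, with upper-quartile factors, library sizes alone, and limma on log2(RPKM + 1) and on log2(RPKM + 0.1), against 1 otherwise. Leaving out each library gave 0 to 1, with 0 without 25(OH)D replicate 2. The cause was not tested. Pathway genes numbered 30 to 40 higher and 10 to 15 lower. The replicate block gave 1 higher and 1 lower among the 10 and 39 and 12 in the lists. Replicate numbers did not pair the samples (correlations of deviations -0.0721, -0.012 and -0.046). Under the block TXNRD2 (-0.21, adjusted p = 0.0547 by edgeR) and PRDX3 (0.21, adjusted p = 0.0642 by edgeR) lost their calls and PRDX4 gained one (0.19, adjusted p = 0.0438 by edgeR).

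Values that changed sign were all uncalled. With upper-quartile factors, library sizes alone, and limma with 1 or 0.1 added, NFE2L2 was -0.0299, -0.0336, -0.0241 and -0.0252, GCLC -0.0204, -0.0239, -0.0093 and -0.0103, and TXN2 -0.0178, -0.0201, -0.018 and -0.0196. Leaving out each library gave ranges of -0.0682 to 0.1067 for NFE2L2, -0.0642 to 0.0042 for KEAP1, -0.01 to 0.1722 for TXN, -0.2114 to 0.0132 for SRXN1, -0.1043 to 0.2742 for GCLC and -0.0068 to 0.1357 for the log2 ratio of NFE2L2 to KEAP1. Of 28 called genes that are named, 22 were called in every alternative. Among the 10 genes HMOX1 had the fewest counts and the widest interval.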

Other observations

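SRXN1 and GCLC, both known NRF2 targets, ordered the libraries of each group alike. SRXN1 had 36.7, 28.9 and 27.2 CPM in control and 25.3, 28.2 and 31.2 CPM in 25(OH)D, and GCLC had 40.6, 27.2 and 25.0 CPM and 24.0, 33.3 and 37.0 CPM. Both were highest in control replicate 1 and lowest in 25(OH)D replicate 1. NFE2L2, KEAP1, TXN and CAT had the same order in control, and a listed regulator had the order of both groups. GCLM and NQO1, other known targets, did not follow the order of both groups. The pair was noticed in these data, and its agreement was not tested.

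FTL, the ferritin light chain, had 13.7 ± 1.13 RPKM in control (SD, n = 3), beside 431 ± 7.91 RPKM for FTH1, the heavy chain. Of the 100-base words of FTL transcripts 3.34% occur in transcripts of another gene, FTLP3, and its 6 named pseudogenes in the table held 10 to 34 counts per library.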
